A study of Mus musculus with 12 samples.

Results

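The genes analysed were 10 that are induced by, or restrain, growth factor signalling through the Ras and ERK kinases in the mouse dorsal hippocampus: the Sprouty genes Spry1, Spry2 and Spry4, the related Spred1 and Spred2, the dual-specificity phosphatases Dusp4 and Dusp6, and the ETS transcription factors Etv1, Etv4 and Etv5. They were taken by symbol from a count table of 24985 genes, and all 10 passed the filter on low counts that left 14742 genes for testing. Spry2 was selected on its measured level over the 4 groups in these same mice, so its levels are given as a description with no test. Counts of members below cover the 9 other genes.

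When a growth factor binds its receptor tyrosine kinase, adaptors load Ras with GTP, and Raf, MEK and ERK are phosphorylated in turn. ERK then switches on a set of genes, several of which encode inhibitors of the same cascade, so that the signal limits itself. In the hippocampus the cascade is driven by neurotrophins, fibroblast growth factors and synaptic activity, and it is needed for long-term memory.

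RNA from the right dorsal hippocampus of 12 C57Bl6/J mice was sequenced, 3 biological replicates in each of 4 groups. At 6 months of age each mouse received a unilateral injection, on the side later sampled, of either PBS or 1 µg of pathological tau purified from the brains of people with Alzheimer's disease (AD tau), and was then kept for 6 months on a control diet, labelled standard chow, or on a diet with 5% Na-acetate. The control-diet groups are called PBS-control and Tau-control and the acetate-diet groups PBS-acetate and Tau-acetate. The mice were wild type and carried no tau transgene, all had been through memory testing with a remote recall a day before the tissue was taken, and per the labels all were harvested and processed together. The labels name TestDiet for the control diet and LabDiet for the acetate diet. The study's methods describe the control as calorically equivalent and name TestDiet as the manufacturer. Acetate and any other differences between the chows cannot be told apart, and "with acetate" below refers to the whole diet. The comparisons ask what tau did on each diet, what the acetate diet did after each injection, and whether the diet effect depended on the injection.

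Library totals ran from 12983233 to 20218340 counts per mouse. The labels describe the mice as male, but all 12 libraries held 13583 to 25991 counts of Xist and 0 counts over 8 Y-linked genes, so the libraries go against that label in every group alike. Markers of hippocampal neurons, oligodendrocytes and other cell types were detected, with no marker at 0 in all mice. Several differed between groups and their values stand beside the results they move with. In RNA from whole tissue, fewer cells of a type and less RNA per cell cannot be told apart.

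Promoter sequences are shown for 3 genes: Spry2, whose level set PBS-control apart from the other groups, its relative Spry1, whose groups overlapped, and Spred2, the tested member with the smallest p-value. Each is the RefSeq window on GRCm38.p6 from 250 bases before to 50 bases after the gene's start, read 5′ to 3′ on the gene's strand. Capitals mark a match to 1 of 4 searched motifs: the ETS core CCGGAA, the AP-1 site TGANTCA, the core TGACG of the cyclic AMP response element and the forkhead site GTAAACA, each on both strands. The regions are chr14:105896770-105897069 (minus strand) for Spry2, chr3:37639697-37639996 (plus strand) for Spry1 and chr11:19924192-19924491 (plus strand) for Spred2.
Spry2: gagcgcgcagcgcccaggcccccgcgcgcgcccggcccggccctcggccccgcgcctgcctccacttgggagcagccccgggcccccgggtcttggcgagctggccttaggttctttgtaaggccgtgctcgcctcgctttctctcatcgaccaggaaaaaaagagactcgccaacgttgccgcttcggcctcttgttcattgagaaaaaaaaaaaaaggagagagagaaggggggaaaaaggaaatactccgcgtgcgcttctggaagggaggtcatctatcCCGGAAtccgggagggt
Spry1: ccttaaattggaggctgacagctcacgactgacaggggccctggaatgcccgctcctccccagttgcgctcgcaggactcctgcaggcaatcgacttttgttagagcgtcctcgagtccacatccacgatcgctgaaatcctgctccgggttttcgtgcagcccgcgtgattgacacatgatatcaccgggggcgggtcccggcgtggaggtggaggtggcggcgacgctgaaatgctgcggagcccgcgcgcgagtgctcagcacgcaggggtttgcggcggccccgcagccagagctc
Spred2: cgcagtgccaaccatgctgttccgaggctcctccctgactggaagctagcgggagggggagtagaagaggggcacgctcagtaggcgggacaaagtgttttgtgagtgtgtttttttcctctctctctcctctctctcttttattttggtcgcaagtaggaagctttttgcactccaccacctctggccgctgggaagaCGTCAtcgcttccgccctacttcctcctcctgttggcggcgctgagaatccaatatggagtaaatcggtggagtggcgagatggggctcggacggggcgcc

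The Spry2 window held 1 ETS core, starting 33 bases after the gene's start, and an ETS core was present in 14.9% of 32851 promoter windows of the same length. The Spred2 window held 1 cyclic AMP response core on the reverse strand, 51 bases upstream, a motif found in 20.8% of windows. The Spry1 window held none of the 4. Promoter windows were matched for 7 of the 10 genes. Besides these, 1 of the Etv5 windows held a forkhead site, as 3.65% of all windows do, and those of Spred1, Dusp6 and Etv1 held no match. The AP-1 site was in 7.81% of all windows and in none of these. A match is a run of letters, not a measured binding site.

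Levels are given as CPM, the counts of a gene scaled to library size. Per kilobase of exon, Spry2, Spred1 and Dusp6 were the most abundant members, at 23.4 ± 2.73, 22.7 ± 1.68 and 22.6 ± 2.33 CPM per kilobase (mean ± SD over 12 mice). These levels overlapped, so their order is not resolved. Spred2 followed at 19.1 ± 1.53, Dusp4 at 11.9 ± 1.69 and Etv5 at 11.8 ± 1.09 CPM per kilobase. Spry1, Spry4, Etv1 and Etv4 were lower, at 4.34, 3.33, 3.26 and 2.42 CPM per kilobase, and Etv4 was counted 104 to 170 times per mouse. The place of Etv1 depends on its length of 13.3 kilobases over all annotated exons. Before that scaling its median was 38.6 CPM, above the 31.8 CPM of Dusp4. The highest and lowest mice differed 1.24-fold for Spred2 and 2.32-fold for Etv1, the narrowest and widest spans among the members. All values that follow are CPM after TMM normalization, for comparison of 1 gene across mice.

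**Figure D1:**
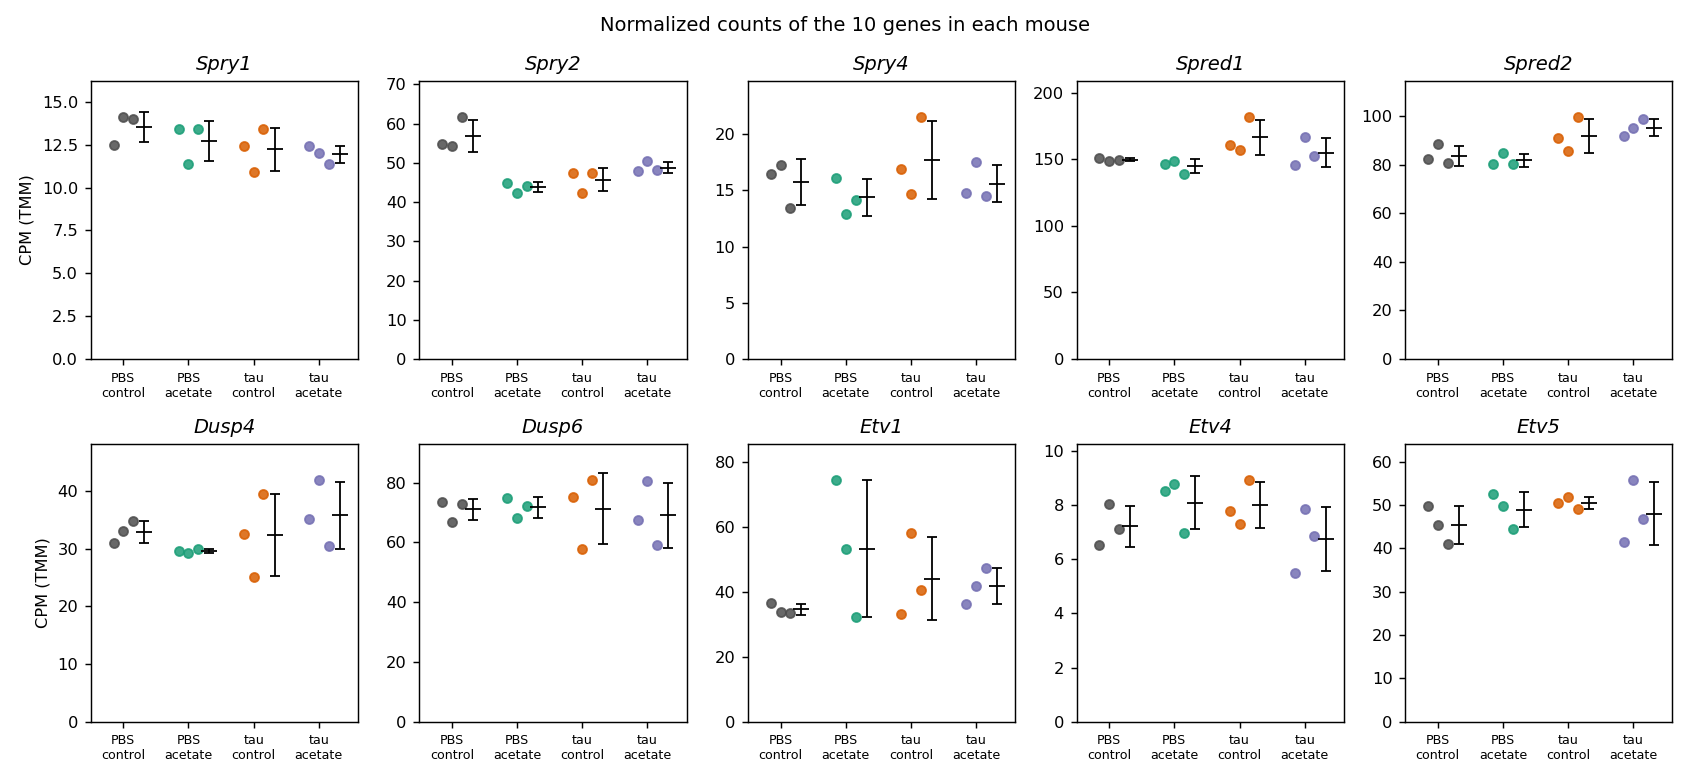
CPM of each of the 10 genes (y axis, from 0) in the 4 groups (x axis), with 1 point per mouse and the mean ± SD of 3 mice beside it. The 3 PBS-control mice lie above all 9 other mice for Spry2, while in the other 9 genes groups next to each other in order of their means overlap.

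Spry2 (ENSMUSG00000022114, GRCm38 chromosome 14, 105891947 to 105896819, minus strand) encodes a Sprouty protein that blocks growth factor signalling upstream of Ras. It measured 54.7, 54.4 and 61.6 CPM in the PBS-control mice, 44.8, 42.4 and 44.2 in PBS-acetate, 47.3, 42.4 and 47.5 in Tau-control, and 47.8, 50.5 and 48.1 in Tau-acetate. Every PBS-control mouse was above every other mouse, and the lowest of them, at 54.4 CPM, stood clear of the highest of the other 9, at 50.5 CPM. Of all genes tested, 1.58% had all 3 PBS-control mice above the other 9, and nothing is read from this since Spry2 was picked for its pattern. The group means were 56.9 ± 4.03, 48.8 ± 1.46, 45.7 ± 2.91 and 43.8 ± 1.26 CPM (SD, n = 3) for PBS-control, Tau-acetate, Tau-control and PBS-acetate. The last pair overlapped, while Tau-acetate lay just above both.

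On the log2 scale, fitted Spry2 was lower by 0.32 with tau on the control diet and by 0.38 with acetate after PBS. With acetate after tau it was higher by 0.09, and with tau on the acetate diet by 0.16. The mean of each single treatment was below PBS-control, and that of the combined treatment lay between them and PBS-control. This describes the pattern for which Spry2 was picked.

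Across the 12 mice the genes whose log2 CPM tracked Spry2 best were Msrb1 (Pearson r = 0.95), Retreg1, Ptp4a1, Ubl3 and Sypl (each 0.91), among 13856 genes with a mean of at least 1 CPM. Msrb1 encodes a selenoprotein that repairs oxidized methionine, and Retreg1 a receptor for autophagy of the endoplasmic reticulum. Retreg1 averaged 56.3 ± 2.15 CPM in PBS-control and 40.2 ± 1.63, 44.0 ± 4.35 and 45.1 ± 2.41 CPM in PBS-acetate, Tau-control and Tau-acetate (SD, n = 3). Msrb1 averaged 22.3 ± 0.739 CPM in PBS-control and 19.2 to 19.9 CPM in the other groups. After each mouse was set against its own group mean, the leading genes were instead Lins1 (0.93), Aifm1, Rheb (each 0.91), Mul1 and Smim10l1 (each 0.90). Rheb encodes the GTPase that activates mTORC1. These correlations share the same libraries and scaling and are descriptions. Among the other members, the closest to Spry2 over the 12 mice was Spry1 (r = 0.56, rank 1300), followed by Dusp4 at 0.47, and Etv1 ran the other way at -0.56. By deviations from the group means the closest was Dusp4 (r = 0.72, rank 324), followed by Dusp6 at 0.71 (rank 345) and Spry1 at 0.66 (rank 535).

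Marker lists moved with the same groups. The summed level of 10 oligodendrocyte markers ran from 7420 to 9582 CPM in PBS-control, 4658 to 6422 in PBS-acetate, 4926 to 5975 in Tau-control and 5627 to 9029 in Tau-acetate. All 10 markers were lower in the fit both with tau on the control diet (0 of 10 passing the test in edgeR, 10 with an unadjusted p under 0.05 and 1 called by DESeq2) and with acetate after PBS (3 of 10 passing, 5 by DESeq2). Like Spry2, their PBS-control mice lay above all mice of each singly treated group, but 2 Tau-acetate mice reached the PBS-control range, which none did for Spry2. The 5 CA1 markers summed to 452 to 589 CPM in PBS-control, 718 to 946 in PBS-acetate, 606 to 767 in Tau-control and 653 to 935 in Tau-acetate, and 4 of 5 were called higher with acetate after PBS. The 6 CA3 markers summed to 695 to 801 CPM in PBS-control, 374 to 582 in PBS-acetate, 574 to 676 in Tau-control and 421 to 645 in Tau-acetate, and 4 of 6 were called lower with acetate after PBS. With tau on the control diet 0 of these markers were called by edgeR or DESeq2, with 3 CA1 markers and 1 CA3 marker at an unadjusted p under 0.05. As for Spry2, the PBS-control mice stood apart from all 9 other mice in both sums, above them for CA3 and below them for CA1. The 4 thalamic markers summed to 98.5 to 274 CPM in PBS-control and 68.0 to 105 in the other groups, with 0 of 4 called by edgeR in any comparison, 1 called lower by DESeq2 with acetate after PBS, and 1 at an unadjusted p under 0.05 in each comparison with PBS-control. The part of tissue composition in the Spry2 values was not tested.

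**Figure D2:**
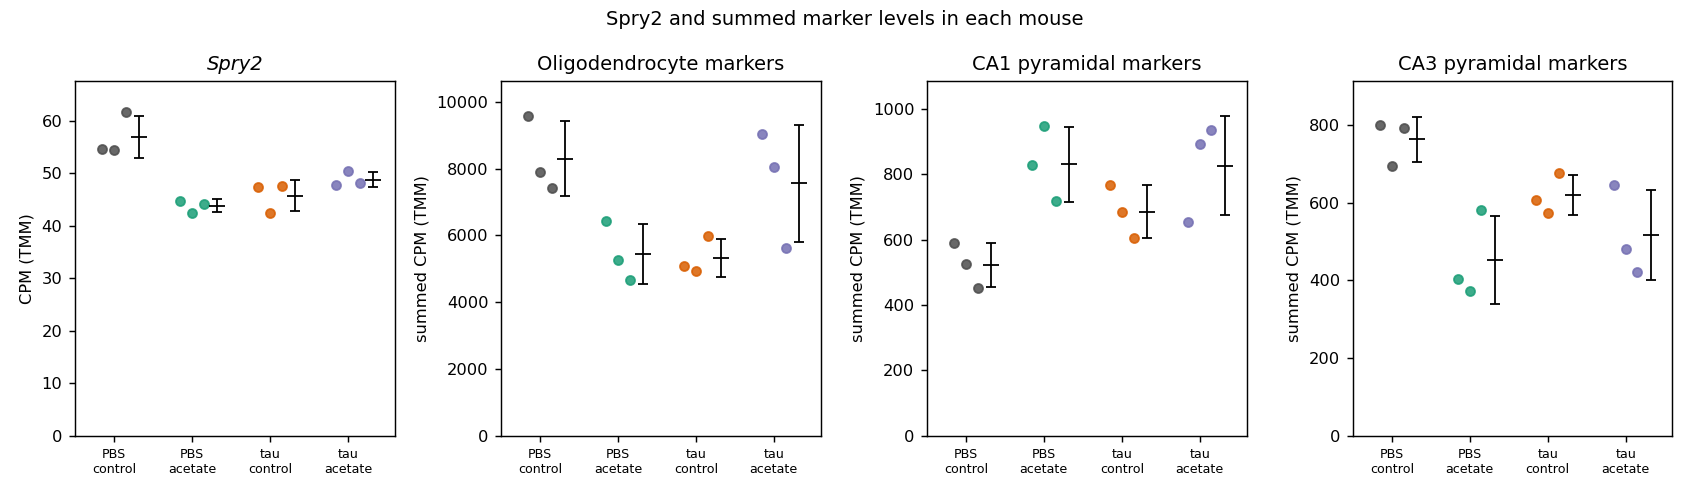
CPM of Spry2 and summed CPM of 3 marker lists (y axes, from 0) in the 4 groups, with 1 point per mouse and the mean ± SD of 3 mice. In PBS-control the CA3 sums lie above and the CA1 sums below those of all 9 other mice, and Tau-acetate spans 5627 to 9029 CPM for the oligodendrocyte list.

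In the other Sprouty genes the PBS-control mice did not stand apart from the other groups. Spry1 measured 12.5, 14.1 and 14.0 CPM in PBS-control, 13.4, 11.4 and 13.4 in PBS-acetate, 12.4, 10.9 and 13.4 in Tau-control, and 12.4, 12.0 and 11.4 in Tau-acetate. The means fell within 1.13-fold of each other and every neighbouring pair of groups overlapped. Its log2 difference was -0.15 with tau on the control diet (95% interval -0.38 to 0.09, adjusted p = 0.739, edgeR) and -0.09 with acetate after PBS (-0.32 to 0.14, adjusted p = 0.687). Both intervals include 0 and leave room for a decrease.

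Spry4, which like the other Sprouty genes is induced by fibroblast growth factors, measured 16.5, 17.3 and 13.4 CPM in PBS-control, 16.1, 12.9 and 14.1 in PBS-acetate, 16.9, 14.7 and 21.5 in Tau-control, and 14.8, 17.5 and 14.5 in Tau-acetate. Tau-control mouse 3 was the highest of all 12. Groups overlapped throughout, and with acetate after tau no tested member separated its groups, where 14.4% of all genes did. For Spry4 the fitted log2 differences lay between -0.18 and 0.16 with adjusted p of 0.622 or more (edgeR).

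Over the 9 tested members, 0 passed an adjusted p of 0.1 in any of the 5 comparisons by edgeR, and 0 did by DESeq2. Of all genes, 0.0136% were called with tau on the control diet, 8.84% with acetate after PBS, 0.0611% with acetate after tau, 0.136% with tau on the acetate diet and 1.56% for the interaction. At an unadjusted p under 0.05 the members numbered 2 with tau on the control diet, 1 with tau on the acetate diet and 0 in the other 3 comparisons. Of all genes, 9.65%, 10.3%, 20.8%, 10.9% and 13% were under this limit with tau on the control diet, tau on the acetate diet, acetate after PBS, acetate after tau and for the interaction. The 9 members had a median log2 difference of 0.15 with tau on the control diet and -0.03 with acetate after PBS, against medians over all genes of -0.000856 and 0.00416. Their medians were -0.03 with tau on the acetate diet, -0.08 with acetate after tau and -0.05 for the interaction. Those over all genes were -0.00354, 0.00079 and -0.00526.

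**Figure D3:**
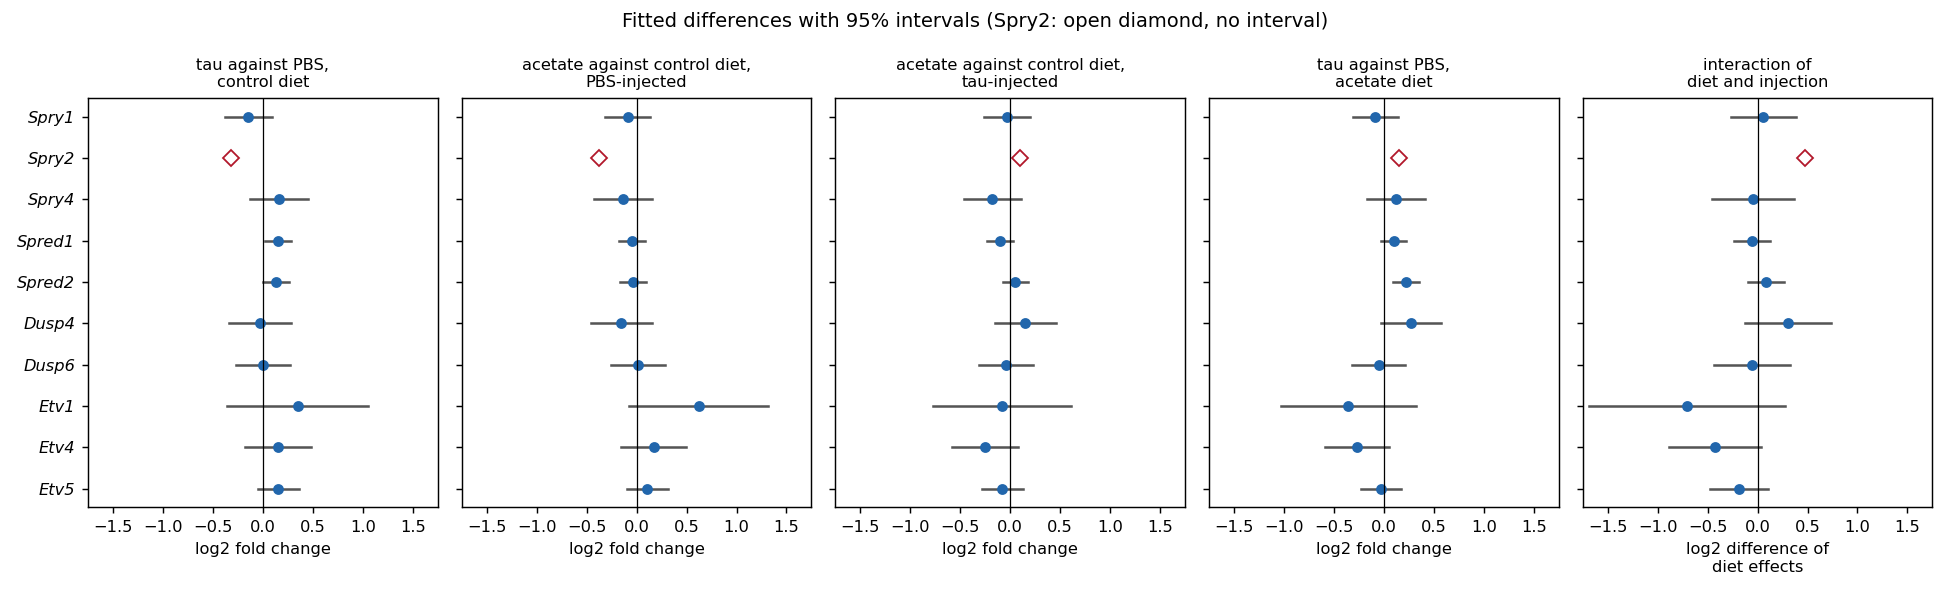
Fitted log2 fold changes of the 10 genes (rows) in the 4 pairwise comparisons and, in the right panel, the difference between the diet effects after tau and after PBS. Points are estimates and lines 95% intervals from edgeR. Spry2 is an open diamond without an interval, and among the others the line clears 0 for Spred1 and Spred2 with tau on the control diet and for Spred2 with tau on the acetate diet.

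The Spred genes encode membrane proteins that bring neurofibromin to Ras and so shut it off, and both had positive fitted differences after tau on both diets. Spred1 measured 150.8, 148.7 and 149.6 CPM in PBS-control and 160.9, 156.8 and 181.4 in Tau-control, so all Tau-control mice were above all PBS-control mice. The log2 difference was 0.15 ± 0.06 (SE), with an unadjusted p of 0.0236 and an adjusted p of 0.43 (edgeR). Spred1 was the 1 member of 9 to separate these groups, upward, where 6.61% of all genes did the same. Summed microglial markers also separated them, at 261 to 268 CPM in PBS-control and 269.5 to 290.3 in Tau-control, with 0 of 6 at an unadjusted p under 0.05 (edgeR). Inhibitory neuron sums did so at 657.6 to 700.4 and 746.0 to 778.3 CPM (2 of 6 under 0.05). Oligodendrocyte precursor sums were 298.4 to 355.9 and 278.0 to 280.2 CPM (4 of 6 under 0.05). The fitted signs of these 6 markers were split, with 3 higher and 3 lower. Cspg4, the marker of smallest p, was higher (log2 0.32). The oligodendrocyte, CA1 and CA3 sums given above separated the groups as well. The part of these lists in the Spred1 values was not tested. On the acetate diet it measured 146.7, 148.7 and 138.8 CPM after PBS and 145.3, 166.9 and 152.2 CPM after tau, and the groups overlapped (log2 0.10, adjusted p = 0.623).

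Spred2 measured 82.4, 88.4 and 80.6 CPM in PBS-control, 80.5, 84.9 and 80.3 in PBS-acetate, 90.9, 85.6 and 99.6 in Tau-control, and 91.9, 95.3 and 98.9 in Tau-acetate. On the acetate diet all tau-injected mice were above all PBS-injected mice, and on the control diet 1 Tau-control mouse, at 85.6 CPM, fell below a PBS-control mouse at 88.4. The log2 difference was 0.22 ± 0.06 on the acetate diet (unadjusted p = 0.00213, adjusted p = 0.199) and 0.13 ± 0.06 on the control diet (unadjusted p = 0.0433, adjusted p = 0.501, both edgeR). Neither passed the test. The difference between these effects was 0.08 (95% interval -0.10 to 0.27, adjusted p = 0.763), so Spred2 was not shown to respond to tau differently on the 2 diets. On the acetate diet Spred2 and Dusp4 were the 2 of 9 members that separated the tau and PBS groups upward, against 7.51% of all genes. Beside this, summed oligodendrocyte markers were 4658 to 6422 CPM after PBS and 5627 to 9029 CPM after tau on that diet. Choroid plexus markers summed to 64.8 to 81.4 CPM after PBS and to 80.1, 79.4 and 475.7 CPM after tau. Of these only Tau-acetate mouse 3 lay above the PBS-acetate range. The 6 microglial markers separated these groups, at 262 to 277 CPM after PBS and 281 to 329 CPM after tau, with 0 called by edgeR or DESeq2 and 4 at an unadjusted p under 0.05. Their part in the Spred2 values was not tested.

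Dusp4 and Dusp6 encode phosphatases that remove the activating phosphates from ERK, Dusp6 in the cytoplasm and Dusp4 in the nucleus. Dusp4 measured 31.0, 33.1 and 34.8 CPM in PBS-control and 29.6, 29.3 and 30.0 in PBS-acetate. These groups did not overlap, the case for 1 of 9 members in the downward direction and for 13.2% of all genes, and the log2 difference of -0.15 (95% interval -0.46 to 0.15) had an adjusted p of 0.587 (edgeR). The tau groups were far more spread, at 32.6, 25.1 and 39.4 CPM in Tau-control and 35.1, 41.9 and 30.4 in Tau-acetate, with within-group coefficients of variation of 22.2% and 16.1% against 5.83% and 1.25% in the PBS groups. All 3 Tau-acetate mice were above all 3 PBS-acetate mice (log2 0.28, interval -0.02 to 0.57, adjusted p = 0.517).

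Dusp6 measured 73.5, 67.0 and 72.7 CPM in PBS-control, 74.9, 68.1 and 72.3 in PBS-acetate, 75.1, 57.9 and 80.9 in Tau-control, and 67.6, 80.7 and 59.0 in Tau-acetate. Its 4 group means lay within 1.04-fold, the smallest span among the members, and the fitted log2 differences ran from -0.05 to 0.01. The 95% intervals of the 4 pairwise comparisons still reached from -0.32 to 0.28.

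The mice that were high or low for Dusp4 tended to be so for Dusp6. Tau-control mouse 2 was the lowest of all 12 for both genes, and Tau-acetate mouse 2 and Tau-control mouse 3 were the highest pair for both. With each mouse set against its group mean, the pair had r = 0.91 (exact within-group permutation p = 0.0201) and Spearman's rho = 0.77 (exact permutation p = 0.0471) over 12 mice, and r = 0.84 without the 2 mice farthest from the median of Dusp4. By the same measure 10 of 13856 genes had a higher r with Dusp4 than Dusp6 did. This was 1 of 45 pairs among the 10 genes, a family examined after the values were seen, and it did not pass adjustment over them (adjusted p = 0.197 for r, 0.286 for rho). Of the 45 pairs, 37 were positive with a median r of 0.42, and 0 had an adjusted permutation p below 0.1. The share of positive pairs among other genes of these libraries was not taken, so nothing is read from this count.

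**Figure D4:**
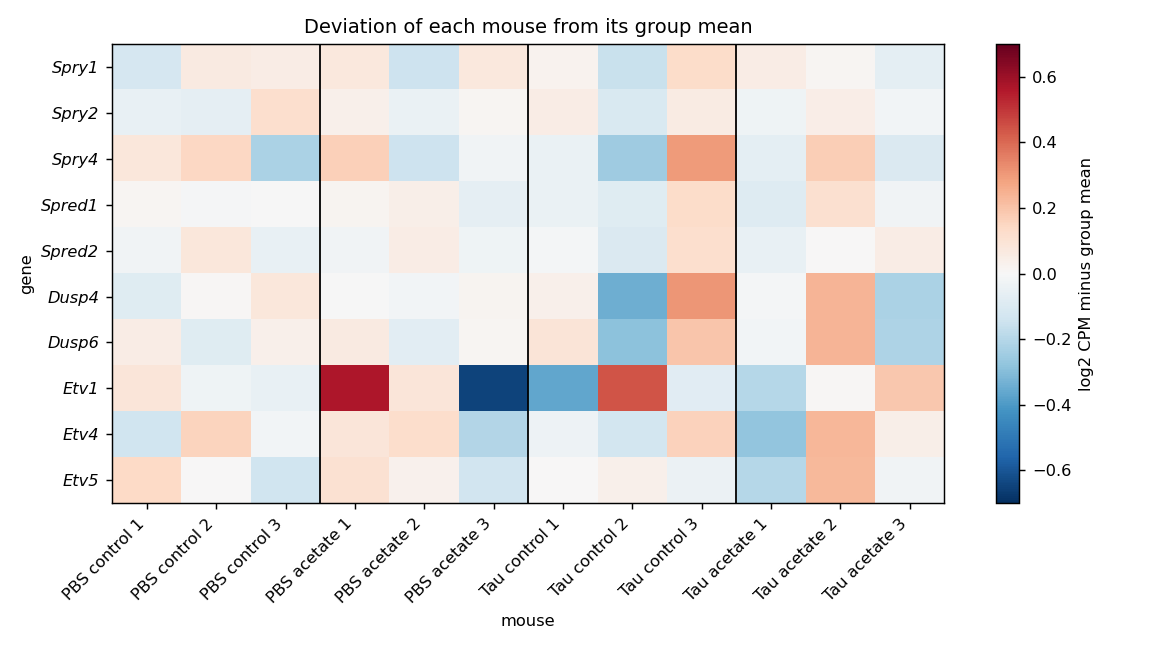
Log2 CPM of each gene (rows) in each of the 12 mice (columns) minus the mean of that mouse's group of 3, with red above and blue below the group mean. Dusp4 and Dusp6 have their deepest blue in Tau-control 2 and their strongest reds in Tau-control 3 and Tau-acetate 2, and Etv1 runs opposite to them in Tau-control 2.

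Over all 12 mice the gene most like Dusp4 was Egr1 (r = 0.92), an immediate early gene that ERK induces, followed by Zfp574 (0.90) and Aff3 (0.84). Closest to Dusp6 were Rnd3 (0.84), Lyl1 and Depdc7 (each 0.83). Arc, another activity-induced gene, ranked 4 for Dusp6 (r = 0.82). These genes were looked up after the member values were seen. Egr1 was lowest in Tau-control mouse 2, at 114.5 CPM, and highest in Tau-acetate mouse 2, at 199.9 CPM. Arc was also lowest in Tau-control mouse 2, at 96.6 CPM against 119.5 to 187.3 CPM in the others. In both tau groups and in PBS-control the 3 mice stood in the same order for Dusp6 and for Arc, and in PBS-acetate they did not.

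The ETS factors Etv1, Etv4 and Etv5 form the PEA3 subfamily, which fibroblast growth factors and ERK induce and activate. Etv1 measured 36.6, 33.8 and 33.4 CPM in PBS-control, 74.4, 53.3 and 32.1 in PBS-acetate, 33.2, 58.2 and 40.6 in Tau-control, and 36.1, 41.7 and 47.2 in Tau-acetate. The PBS-acetate mice spanned the whole range of the data, from the lowest of the 12 mice to the highest. The log2 difference of 0.62 with acetate after PBS (95% interval -0.07 to 1.31) had an adjusted p of 0.291 (edgeR). Without PBS-acetate mouse 3 it became 0.88 with an adjusted p of 0.0747, the single change of a call among the 9 members over all alternatives.

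Etv1 is known from layer 5 of the neocortex, and 1 of the genes that tracked it best, again looked up after its values were seen, was Fezf2 (r = 0.94), a transcription factor of deep-layer cortical projection neurons. Cdkl4 led at 0.95. Fezf2 measured 36.9, 26.4 and 18.6 CPM in the PBS-acetate mice, 17.3, 36.9 and 20.8 in Tau-control, 19.2, 16.9 and 16.6 in PBS-control, and 18.5, 19.5 and 20.4 in Tau-acetate. The mice with the highest Etv1 in PBS-acetate and in Tau-control were those with the highest Fezf2. Its part in the Etv1 values was not tested.

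Etv4, the least abundant member, measured 6.52, 8.03 and 7.11 CPM in PBS-control, 8.53, 8.77 and 6.96 in PBS-acetate, 7.79, 7.3 and 8.93 in Tau-control, and 5.5, 7.86 and 6.87 in Tau-acetate. Fitted values were higher with tau on the control diet (log2 0.15, adjusted p = 0.823) and lower with tau on the acetate diet (-0.27, adjusted p = 0.565). The difference of -0.42 (95% interval -0.89 to 0.04) had an adjusted p of 0.435 (edgeR), and the groups overlapped. Etv5 measured 49.8, 45.4 and 41.1 CPM in PBS-control, 52.5, 49.8 and 44.5 in PBS-acetate, 50.6, 51.9 and 49.2 in Tau-control, and 41.5, 55.8 and 46.8 in Tau-acetate. Its groups overlapped, and the log2 difference with tau on the control diet was 0.15 (-0.05 to 0.36, adjusted p = 0.683).

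The rest of the pathway was read from 6 lists with 105 genes, of which 98 passed the filter. With acetate after PBS, 12 of the 98 were called, beside 8.84% of all genes. Of these, 2 were higher (3.99% of all genes) and 10 lower (4.85%). Those called higher were Rasgrf1, a Ras activator of neurons, and Pdgfrb, a receptor of platelet-derived growth factor. Those called lower included Phlda1, an ERK target, Rps6ka3, an ERK-activated kinase, Tgfa, a ligand of the EGF receptor, and Gab1, an adaptor. The other genes called lower were Dusp3, Flrt3, Fgfr1, Nras, Igf1r and Rasgrp1. By role, 1 of 18 ligands, 3 of 14 receptors, 3 of 18 adaptors and Ras regulators, 2 of 16 Ras, Raf, MEK and ERK genes, 2 of 13 further feedback inhibitors and 1 of 19 further ERK targets were called. The ligands had the lowest list median, -0.11 on the log2 scale, and the receptors the highest, 0.10.

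Rasgrf1 measured 658.6, 675.9 and 635.0 CPM in PBS-control and 740.6, 835.5 and 768.5 in PBS-acetate (log2 0.25 ± 0.05, SE, adjusted p = 0.0236, edgeR). Every PBS-acetate mouse was above every PBS-control mouse. Phlda1 went from 20.1, 18.8 and 22.6 CPM to 14.9, 16.1 and 15.4 (log2 -0.41 ± 0.09, adjusted p = 0.0238) and Rps6ka3 from 52.1, 54.8 and 52.7 to 43.2, 40.3 and 44.7 (log2 -0.32 ± 0.07, adjusted p = 0.0313), again without overlap.

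These 12 calls depended on which mice were included, as those of the whole transcriptome did. Without PBS-acetate mouse 2, 0 of 98 were called, and over all genes 15 in place of 1303. Without PBS-control mouse 3, 2 of 98 and 248 of all genes were called. Without PBS-control mouse 1 or 2, 7 of 98 were called each time, with 6 of the 12 among them. Without PBS-acetate mouse 1, 5 of 98 were called, with 4 of the 12 among them. The highest count with a mouse left out was 15 of 98. Over these fits the log2 difference ran from 0.21 to 0.29 for Rasgrf1, -0.46 to -0.34 for Phlda1 and -0.35 to -0.27 for Rps6ka3. The oligodendrocyte, CA1, CA3 and thalamic marker sums given above separated the same groups. Inhibitory neuron sums did so at 657.6 to 700.4 CPM in PBS-control and 734.2 to 813.1 in PBS-acetate. Choroid plexus sums were 86.5 to 119.0 and 64.8 to 81.4 CPM, and striatal sums 70.8 to 76.8 and 80.4 to 87.8 CPM. The remaining marker sums overlapped between these groups. The part of these lists in the calls was not tested.

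The interaction of diet and injection was called for 4 of 98 pathway genes, all with a more positive diet effect after tau, beside 1.11% of all genes in that direction. They were Tgfa (log2 difference 0.44 ± 0.11, SE, adjusted p = 0.0698), Gab1 (0.79 ± 0.19, 0.0803), Fgf1 (0.38 ± 0.10, 0.0885) and Maff (2.17 ± 0.58, 0.0947, all edgeR). Tgfa measured 47.9, 54.6 and 48.8 CPM in PBS-control, 41.1, 41.9 and 39.5 in PBS-acetate, 43.2, 40.4 and 46.5 in Tau-control, and 50.5, 48.3 and 44.0 in Tau-acetate. Fgf1, a broadly acting fibroblast growth factor, measured 57.4, 59.9 and 54.2 CPM in PBS-control, 49.0, 52.9 and 48.7 in PBS-acetate, 47.1, 54.2 and 49.4 in Tau-control, and 54.9, 55.8 and 61.9 in Tau-acetate. In both, the singly treated groups had the lower means and the combined treatment a mean near that of PBS-control.

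Gab1 averaged 48.0 ± 2.45 CPM in PBS-control, 34.3 ± 3.23 in PBS-acetate, 38.5 ± 6.38 in Tau-control and 47.5 ± 7.95 in Tau-acetate (SD, n = 3). Maff, a small Maf transcription factor, had few counts, at 0.361 to 1.73 CPM over the 12 mice. The oligodendrocyte marker list moved in the same way as these 4 genes, with 10 of 10 markers positive for the interaction at a median log2 difference of 1.07. By edgeR 0 were called, with 10 at an unadjusted p under 0.05, and DESeq2 called 9. Its part in these 4 genes was not tested. The 4 calls also depended on which mice were included. With PBS-control mouse 2 or PBS-acetate mouse 2 or 3 left out, 0 of the 4 remained called. This was also so for Tau-control mouse 1 or 2 and Tau-acetate mouse 1 or 2. Without each of the other 5 mice, 1 to 3 of the 4 remained.

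In the other 3 comparisons 0 of 98 pathway genes were called by edgeR, with 22, 15 and 11 at an unadjusted p under 0.05 for tau on the control diet, acetate after tau and tau on the acetate diet, beside the 9.65%, 10.9% and 10.3% of all genes given above. As shares of the 98 these were 22.4%, 15.3% and 11.2%. DESeq2 called 1, 0 and 1 there. The first was Ksr2, a scaffold of Raf, MEK and ERK (log2 0.35), and the last was Gab1 (0.47).

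**Figure D5:**
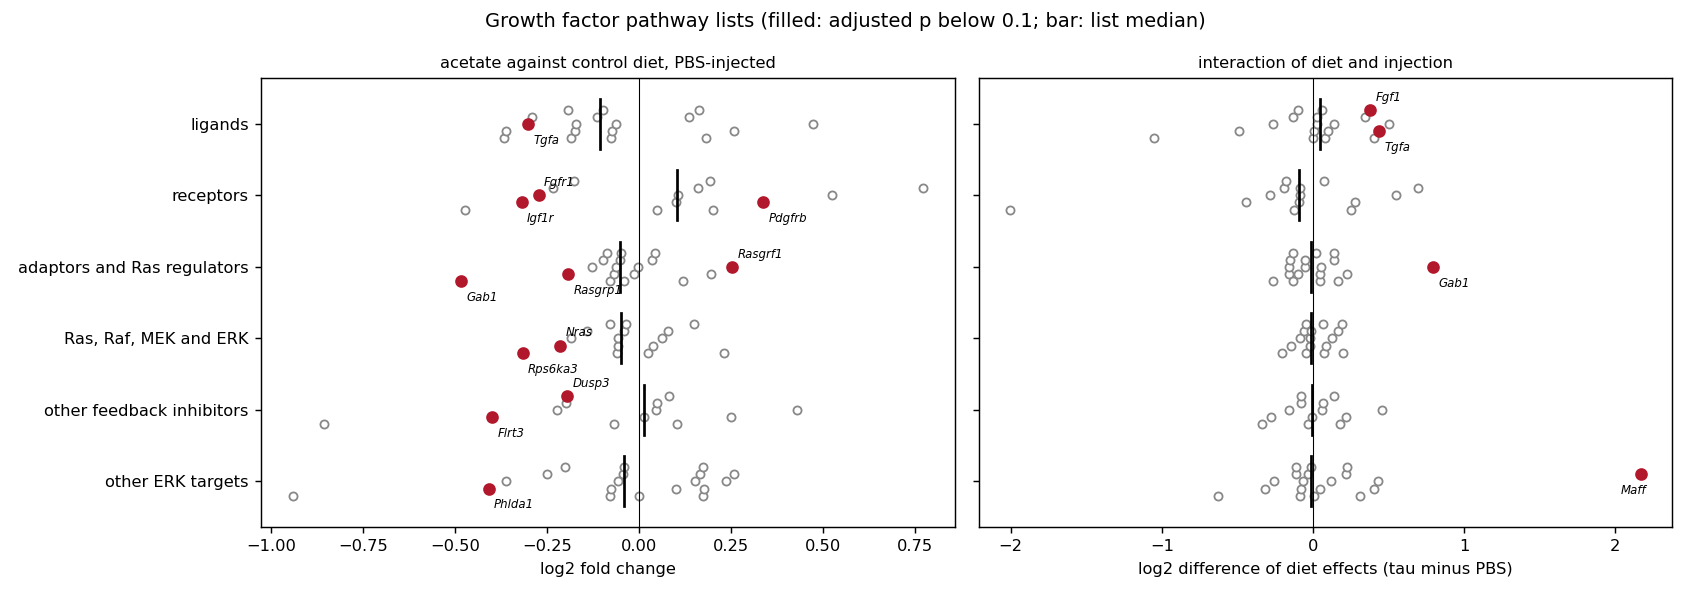
Log2 fold changes of 98 pathway genes with acetate after PBS (left) and log2 differences between the diet effects after tau and after PBS (right), by role of the gene product. Filled points with names passed an adjusted p of 0.1 (12 on the left, 4 on the right), open points did not, and the vertical bar is the list median.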

How the data were processed

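Poly(A) RNA from the right dorsal hippocampus of 12 mice was sequenced from stranded libraries. The authors aligned reads with STAR (2.5.2a per the labels) to GRCm38, made per-gene totals with HTSeq 0.9.1, and the raw counts for each mouse were deposited without normalization. SAMtools 1.1 and DESeq2 are also named in the submitters' processing notes, and the gene annotation release is not given in the sources used here. Identifiers were matched to GENCODE M21 for positions and exon lengths, and promoters came from RefSeq.

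Genes were kept by filterByExpr (minimum count 10, minimum total 15). Differences were tested in R 4.3.3 by edgeR 4.0.16 (quasi-likelihood F test, robust) after TMM, fitting 1 mean for each group to all 12 mice with 8 residual degrees of freedom. Over the 14742 genes, p-values were adjusted by the Benjamini-Hochberg method, with 0.1 as the limit for a call. The code was tested on simulated data. The common biological coefficient of variation was 7.25%. DESeq2 1.42.0 was an alternative, beside its size factors with edgeR, no filter, a threshold of 0.05, the 6 compared mice alone, a replicate block and each mouse left out. Correlations used log2 CPM with a prior count of 2. Standard errors follow from the F statistic. No 2 libraries of a group were alike within sampling noise.

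The members and all lists were chosen with earlier results of these data known. Named genes are the members, at most 4 called pathway genes of smallest p per comparison, and the 5 genes most like Spry2 by each measure. Others were named after their values were seen. An item of the pathway lists is not reported here, and the counts leave it out.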

Additional observations from a re-analysis of the deposited data

Results flagged for a closer look

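By a test of the difference itself, 4 of 98 pathway genes were called for a more positive diet effect after tau. Of all genes, 1.11% were called in that direction. Without PBS-control mouse 2 or PBS-acetate mouse 2 or 3, 0 of the 4 remained called. The same held without Tau-control mouse 1 or 2 or Tau-acetate mouse 1 or 2. Leaving out any other mouse kept 1 to 3 of them. All 10 oligodendrocyte markers were also positive for the interaction, and their part in these 4 genes was not tested. The effect after tau minus the effect after PBS was 0.38 for Fgf1, 0.44 for Tgfa, 0.79 for Gab1 and 2.17 for Maff on the log2 scale, each past an adjusted p of 0.1 by edgeR. For Spry2 every acetate-fed mouse lay below its control-diet mean after PBS and above it after tau, and every tau-injected mouse lay below its PBS mean on the control diet and above it on the acetate diet. This is 1 difference, of 0.47 on the log2 scale, and it was not tested because Spry2 was chosen for this pattern. For Etv4 every tau-injected mouse lay above the PBS mean on the control diet and below it on the acetate diet, and the difference of -0.42 did not pass the test (adjusted p = 0.435, edgeR).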

How the results depend on the processing

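Among the 9 members, 510 of 540 fitted differences with 1 mouse left out kept their direction and their side of the threshold, as did 215 of 216 under the other alternatives. The exception among the latter was Dusp6 with tau on the control diet, at -0.0002281 on the 6 compared mice. The count of members called ranged from 0 to 1 with a mouse left out in acetate after PBS, the 1 being Etv1, and was 0 under each other alternative run. Of 45 differences, 15 changed direction in some fit with a mouse left out. With tau on the control diet, these were Dusp4 (-0.19 to 0.13) and Dusp6 (-0.10 to 0.13). With acetate after PBS, they were Dusp6 (-0.028 to 0.054) and Spred2 (-0.059 to 0.0076). With acetate after tau, they were Spry1 (-0.11 to 0.035), Dusp4 (-0.0061 to 0.32), Dusp6 (-0.17 to 0.062), Etv1 (-0.25 to 0.17) and Etv5 (-0.20 to 0.028). With tau on the acetate diet, they were Dusp6 (-0.18 to 0.046) and Etv5 (-0.15 to 0.069). For the interaction, they were Spry1 (-0.018 to 0.12), Spry4 (-0.17 to 0.12), Spred1 (-0.11 to 0.011) and Dusp6 (-0.19 to 0.045).

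Called pathway genes with tau on the control diet were 1 by DESeq2. With acetate after PBS they were 5 at a threshold of 0.05 and 0 to 15 with a mouse left out. With acetate after tau they ranged from 0 to 1 with a mouse left out. With tau on the acetate diet they were 1 by DESeq2 and 0 to 1 with a mouse left out. For the interaction they were 0 at a threshold of 0.05, 7 by DESeq2 and 0 to 5 with a mouse left out. The cause of these shifts was not tested. Over all genes, the main counts of 2, 1303, 9, 20 and 230 for tau on the control diet, acetate after PBS, acetate after tau, tau on the acetate diet and the interaction became 100, 1387, 167, 130 and 472 by DESeq2, and 0, 541, 3, 0 and 43 at a threshold of 0.05. Of the 5 genes most like Spry2 over the 12 mice, 3 stayed among the top 5 by Spearman's rho, and 2 of the 5 by deviations did. Both lists were the same with a prior count of 0.5.

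Same-numbered mice showed little shared deviation (r from -0.12 to 0.206 over 18 pairs, 3 above 0.1). Such correlations within groups of 3 cannot exclude a pairing by number. A replicate block left 0 members called in each comparison, 5 pathway genes called for the interaction, and 9, 1224, 10, 25 and 349 of all genes called. Etv4 was counted 104 to 170 times per mouse and Maff reached at most 1.73 CPM, so counting error adds to their spread. With 3 mice per group, the 95% intervals of Etv1 and Dusp4 leave room for sizeable changes.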
